A study of Mus musculus with 36 samples.

Results

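The genes examined here were the sestrins Sesn1, Sesn2 and Sesn3, the REDD genes Ddit4 and Ddit4l, and the 4E-BP genes Eif4ebp1 and Eif4ebp2. They were taken by symbol, as 7 of the 36856 symbols in a table of estimated counts per gene, and all 7 were among the 16065 symbols that passed the filter on low counts. Ddit4l passed that filter through its WT libraries. The table came from RNA sequencing of mouse embryonic fibroblasts (labelled MEF), which are fibroblasts grown from mouse embryos. The genotype was WT or PERK -/-, called PERK-null below. Cells of each genotype received DMSO as the solvent control, or thapsigargin (Tg), or BtdCPU or halofuginone, each of the latter alone and combined with Tg (BtdCPU + Tg, halofuginone + Tg), with 3 libraries in each of the 12 groups. The labels give no dose, treatment time, batch, allele or origin of the lines, and 1 cell line name stands for both genotypes, so an effect of PERK and a difference between lines cannot be told apart. They do not say that replicates were separate cultures, and p-values therefore measure only the spread between these libraries.

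These genes encode brakes on cell growth. The kinase complex mTORC1 drives protein synthesis when amino acids and growth signals are present. Sestrins bind the GATOR2 complex and so keep amino acids from switching mTORC1 on, REDD1 (the product of Ddit4) and REDD2 (Ddit4l) restrain it through the TSC complex, and 4E-BPs are mTORC1 substrates that, when not phosphorylated, hold the cap-binding factor eIF4E. Sesn2, Ddit4 and Eif4ebp1 are known targets of ATF4, the transcription factor of the integrated stress response, Sesn1 is best known as a p53 target and Sesn3 as a FoxO target. PERK starts that response by phosphorylating eIF2 alpha when the endoplasmic reticulum is stressed, as by thapsigargin, which blocks its calcium pump. Other kinases can phosphorylate eIF2 alpha too. HRI is activated by BtdCPU, and GCN2 by halofuginone, an inhibitor of prolyl-tRNA synthetase. The comparisons ask which of these transcripts still respond to stress without PERK, and how they stand when BtdCPU or halofuginone is given alone or with thapsigargin.

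The promoters of the sestrins and of Ddit4 are shown because these genes moved in different directions under the same treatments. RefSeq promoters on build GRCm38.p6 were found for 6 of the 7 genes (7 promoters, 2 of them for Sesn1). Each stretch below holds the 250 bases before the annotated start, 5′ to 3′ on the gene's own strand, with matches to the motifs searched in capitals.
Sesn1, promoter 1, chr10:41810324-41810573, plus strand: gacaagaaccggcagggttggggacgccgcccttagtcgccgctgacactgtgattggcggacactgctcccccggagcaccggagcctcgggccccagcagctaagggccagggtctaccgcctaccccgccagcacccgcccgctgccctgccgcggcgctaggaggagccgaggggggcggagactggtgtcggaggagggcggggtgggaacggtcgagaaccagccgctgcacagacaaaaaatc
Sesn2, chr4:132510457-132510706, minus strand: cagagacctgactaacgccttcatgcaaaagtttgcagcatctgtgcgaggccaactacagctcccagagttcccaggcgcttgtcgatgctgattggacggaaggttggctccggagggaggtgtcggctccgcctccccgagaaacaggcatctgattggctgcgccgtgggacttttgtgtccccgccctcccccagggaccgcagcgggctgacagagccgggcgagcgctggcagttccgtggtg
Sesn3, chr9:14276051-14276300, plus strand: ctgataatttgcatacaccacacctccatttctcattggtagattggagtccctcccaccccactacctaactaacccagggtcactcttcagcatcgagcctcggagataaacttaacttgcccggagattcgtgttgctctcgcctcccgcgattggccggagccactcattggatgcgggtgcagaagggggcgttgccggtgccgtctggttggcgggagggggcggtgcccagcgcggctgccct
Ddit4, chr10:59951771-59952020, minus strand: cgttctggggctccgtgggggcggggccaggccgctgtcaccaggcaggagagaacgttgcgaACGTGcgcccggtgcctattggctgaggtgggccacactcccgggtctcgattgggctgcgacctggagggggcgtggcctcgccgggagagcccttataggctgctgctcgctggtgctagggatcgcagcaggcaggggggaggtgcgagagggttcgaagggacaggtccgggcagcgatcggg

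Motifs of 4 kinds were searched on both strands, in the same windows extended by 50 bases after the start. They were the C/EBP-ATF response element TTGCATCA, its core TGATGNAA (whose letters include the reverse complement of the full element), the FoxO element GTAAACA and the hypoxia (HIF) element ACGTG. None of the 7 promoters held either form of the C/EBP-ATF element, which were found in 0.895% and 3.97% of all 32851 promoters of the same length. This says only that these letters are not in these windows. Ddit4 held the HIF element 187 bases before the start (capitals above) and Eif4ebp2 held it 182 bases before, beside 19.6% of all promoters. The FoxO element was matched in Sesn1 promoter 1 on the opposite strand, as TGTTTAC at 22 bases past the start and so outside the stretch shown, beside 3.65% of all promoters.

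Libraries held 32454257 to 37178107 counts. Eif2ak3, the gene of PERK, was measured in CPM, the count scaled to a common library size by edgeR with TMM factors. Under DMSO its level was 31.1 ± 1.10 CPM in WT and 9.95 ± 0.760 CPM in PERK-null libraries (SD, n = 3), and within each treatment the highest PERK-null value was under the lowest WT value. All 6 fibroblast markers checked were at 24.2 CPM or more in every library, with a summed level of 9057 to 20440 CPM. The summed level of 4 epithelial markers was 16.9 to 23.5 CPM in WT halofuginone libraries and 7.97 to 10.5 CPM in WT halofuginone + Tg libraries, against at most 4.80 CPM elsewhere, while Epcam was at 0 in 24 of 36 libraries and never above 0.169 CPM. The 3 neural markers summed to 26.3 to 59.8 CPM in PERK-null and 7.29 to 22.5 CPM in WT libraries, nearly all of it Map2, while Rbfox3 was at 0 in 30 libraries and Gfap in 22. The summed level of 4 immune markers was 1.15 to 3.89 CPM, with Cd3e at 0 in all 36 libraries, and that of 3 endothelial markers was 2.73 to 5.06 CPM in WT halofuginone libraries and at most 2.04 CPM elsewhere. The part of these markers in the results below was not tested. In bulk libraries, fewer cells of a type and less RNA per cell cannot be told apart.

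Of the 7 genes, 3 were called higher and 2 lower by thapsigargin in WT cells (edgeR, adjusted p under 0.05), where 24.9% of all tested genes were called higher and 22.7% lower. BtdCPU in WT cells gave 2 higher and 2 lower, beside 12.9% and 9.31% of tested genes. Halofuginone in WT cells gave 2 higher and 4 lower, beside 34.7% and 33.4%, in the libraries with the highest epithelial marker sum (16.9 to 23.5 CPM, against 0.114 to 0.337 CPM in WT DMSO libraries). The median log2 difference of the 7 genes was -0.42, -0.055 and -0.66 in these 3 comparisons, while the median over all tested genes lay between -0.049 and 0.046 in every comparison made here. In PERK-null cells thapsigargin gave 5 higher and 0 lower (also 0 at an unadjusted p under 0.05 and with DESeq2), beside 15.2% and 12.7% of tested genes, with a median of 1.07. The 5 count Ddit4l, which passed the low-count filter through its WT libraries. A fit of only the compared groups gave it no result and called 4 genes. PERK-null cells given BtdCPU had 2 higher and 1 lower of the 6 genes that could be compared, beside 2.55% and 1.04% (median 0.12), and with halofuginone 2 higher and 2 lower of 6, beside 21.2% and 21% (median 0.25). Ddit4l is left out of these last counts because both groups lay at or under 3 counts in each library, the limit that a count of 0 allows.

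The combinations were compared with thapsigargin alone, which they share as the reference. In WT cells, adding BtdCPU to thapsigargin gave no call among the 7 genes, beside 1.29% of tested genes higher and 1.02% lower (median -0.17). With edgeR, 2 of the 7 (Ddit4 and Eif4ebp1, both lower) had an unadjusted p under 0.05, and DESeq2 called 1, Ddit4. Same-numbered replicates paired in this comparison. Treated as blocks in edgeR, they gave calls for these 2 genes and for 2079 tested genes, against 372 without blocks. Adding halofuginone to thapsigargin in WT cells gave none higher (2 at an unadjusted p under 0.05, of which DESeq2 called 1 and edgeR with such blocks 2) and 4 lower, beside 22.8% and 22.5% (median -0.45). In PERK-null cells the same additions split all 7 genes: BtdCPU + Tg gave 2 higher and 5 lower, beside 17.3% and 18.3% (median -0.75), and halofuginone + Tg gave 2 higher and 5 lower, beside 25.2% and 27.5% (median -0.88). Each 5 counts Ddit4l, which passed the low-count filter through its WT libraries. In a fit of only the compared groups Ddit4l had no result, and 6 genes were called in each case. The genes that were higher were Sesn2 and Eif4ebp1 in both. Between the genotypes under DMSO, PERK-null libraries had 2 genes higher (Sesn1, Eif4ebp1) and 4 lower than WT among the 6 other than Ddit4l, beside 24.6% and 24.9% of tested genes (median -0.52).

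**Figure D1:**
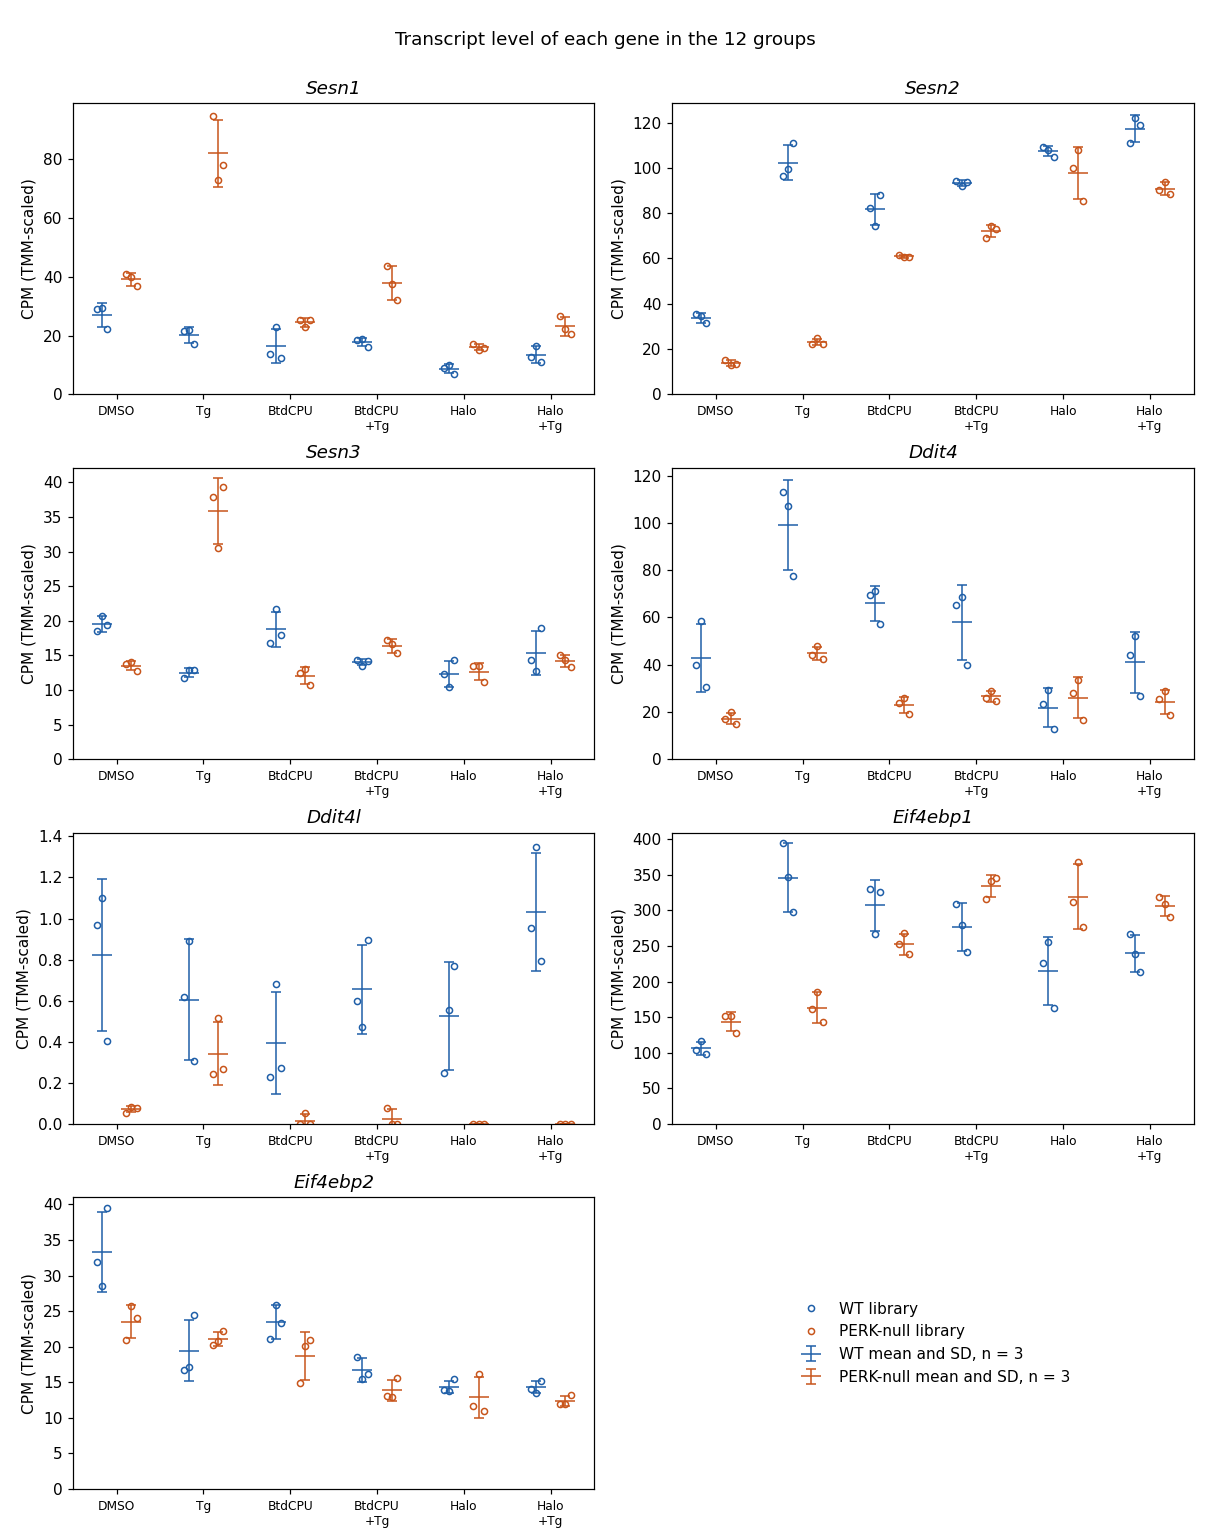
Level of each of the 7 genes (CPM on TMM-scaled library sizes, y axis, from 0) under the 6 treatments (x axis) in WT and PERK-null cells, with 1 circle per library and the mean and SD of 3 libraries as bars. Sesn1 and Sesn3 stand highest in PERK-null Tg libraries (means of 82.0 and 35.9 CPM), where Sesn2 stands at 23.1 CPM, below every treated WT group.

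Sesn2, whose product senses leucine and restrains mTORC1, was raised by each agent in each genotype, but from different baselines and by different amounts. Values of 3 libraries are given below in the order of replicates 1, 2 and 3. In WT cells it stood at 35.3, 34.5 and 31.3 CPM under DMSO and at 96.3, 99.7 and 111 CPM under thapsigargin. The 2 groups did not overlap, and the log2 difference was 1.60 (SE 0.0868, edgeR adjusted p = 1.54e-15). WT libraries held 82.3, 74.5 and 88.1 CPM under BtdCPU (log2 difference 1.28, SE 0.0863, adjusted p = 1.73e-12) and 109, 108 and 105 CPM under halofuginone (1.67, SE 0.0870, adjusted p = 1.75e-16). Every treated WT library stood above every WT DMSO library.

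In PERK-null cells Sesn2 began lower, at 15.2, 12.8 and 13.3 CPM under DMSO, a log2 difference of -1.30 from WT (SE 0.0886, edgeR adjusted p = 1.08e-13). Thapsigargin took it to 22.4, 24.7 and 22.2 CPM, which was above the PERK-null DMSO libraries (log2 difference 0.75, SE 0.0884, adjusted p = 7.83e-08) but under every WT library of any group. BtdCPU took it to 61.6, 60.4 and 60.7 CPM (2.15, SE 0.0898, adjusted p = 1.74e-17), and halofuginone to 99.8, 108 and 85.4 CPM (2.83, SE 0.0917, adjusted p = 7.89e-21). The halofuginone difference was the largest of any called for the sestrins in the 11 comparisons of 2 groups.

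When thapsigargin was present, BtdCPU and halofuginone left Sesn2 within a narrow band in WT cells and raised it in PERK-null cells. WT libraries stood at 94.1, 91.8 and 93.7 CPM under BtdCPU + Tg, a log2 difference of -0.13 from thapsigargin alone (95% interval -0.31 to 0.040, edgeR adjusted p = 0.437). Under halofuginone + Tg they stood at 111, 122 and 119 CPM, a log2 difference of 0.20 (SE 0.0840) that missed the threshold at an adjusted p of 0.0561. With same-numbered replicates treated as blocks, that difference was 0.20 with an adjusted p of 0.0307. PERK-null libraries stood at 69.2, 74.2 and 72.8 CPM under BtdCPU + Tg and at 90.2, 93.8 and 88.6 CPM under halofuginone + Tg, against 22.2 to 24.7 CPM under thapsigargin alone. These were log2 differences of 1.64 (SE 0.0875, adjusted p = 1.23e-14) and 1.98 (SE 0.0882, adjusted p = 3.90e-17), with no overlap.

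Ordered by group mean, Sesn2 ran from WT halofuginone + Tg (117 CPM) through WT halofuginone (108), WT Tg (102), PERK-null halofuginone (97.7), WT BtdCPU + Tg (93.2), PERK-null halofuginone + Tg (90.9), WT BtdCPU (81.6), PERK-null BtdCPU + Tg (72.0), PERK-null BtdCPU (60.9), WT DMSO (33.7) and PERK-null Tg (23.1) to PERK-null DMSO (13.7). Libraries of neighbouring groups overlapped at 4 of the 11 steps, all between WT halofuginone and PERK-null halofuginone + Tg. The highest mean was 8.54 times the lowest.

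Sesn1, the sestrin best known from the p53 response, was called lower in 6 of the 8 treatment comparisons in which Sesn2 was called higher, and higher in 1 of them, thapsigargin in PERK-null cells. WT libraries held 29.1, 29.5 and 22.2 CPM under DMSO and 21.4, 21.9 and 17 CPM under thapsigargin. These did not overlap, but the log2 difference of -0.42 (SE 0.178) missed the threshold at an edgeR adjusted p of 0.0501. Without WT DMSO replicate 3 it was -0.54 (adjusted p = 0.0222), and without WT Tg replicate 2 it was -0.53 (adjusted p = 0.0346). With all libraries kept, it passed with DESeq2 (-0.43, adjusted p = 0.0471) and without the low-count filter (-0.46, edgeR adjusted p = 0.00659). Same-numbered replicates as blocks gave -0.42 (edgeR adjusted p = 0.00130). It did not pass under the other settings that kept all libraries. The call therefore depended on the setting as well as on single libraries. BtdCPU libraries held 13.8, 23.0 and 12.3 CPM, a log2 difference of -0.71 (SE 0.179, adjusted p = 0.00413), with replicate 2 inside the DMSO range. That call was lost without WT BtdCPU replicate 3 (-0.54, adjusted p = 0.0581) and when the fit held only the compared groups (-0.72, adjusted p = 0.0976). Halofuginone took Sesn1 to 9.04, 10.1 and 6.97 CPM, its lowest level in any group and a log2 difference of -1.63 (SE 0.186, adjusted p = 4.01e-09).

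In PERK-null cells given thapsigargin, Sesn1 rose from 40.9, 39.9 and 36.7 CPM under DMSO to 94.9, 73.1 and 78.1 CPM, a log2 difference of 1.07 (SE 0.175, edgeR adjusted p = 1.83e-05). Every PERK-null Tg library stood above every other library of the series. Under DMSO, PERK-null cells already held more Sesn1 than WT cells (log2 difference 0.54, SE 0.176, adjusted p = 0.0111), a call lost without WT DMSO replicate 3 (0.42, adjusted p = 0.0779). Halofuginone lowered Sesn1 to 17, 15.1 and 15.9 CPM (-1.29, SE 0.179, adjusted p = 6.69e-07). BtdCPU gave 25.2, 22.8 and 25.4 CPM (-0.68, SE 0.176, adjusted p = 0.0222), with no overlap with DMSO, although the adjusted p was 0.0575 to 0.0971 without any 1 of 5 libraries (all but PERK-null DMSO replicate 3).

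Both compounds also lowered Sesn1 in the presence of thapsigargin in PERK-null cells. The 3 libraries held 43.8, 37.6 and 32.1 CPM under BtdCPU + Tg (log2 difference -1.12 from thapsigargin alone, SE 0.175, edgeR adjusted p = 7.66e-06) and 26.8, 22.1 and 20.5 CPM under halofuginone + Tg (-1.83, SE 0.180, adjusted p = 4.41e-10). WT libraries held 18.6, 18.7 and 16.1 CPM under BtdCPU + Tg (-0.17 from thapsigargin alone, 95% interval -0.54 to 0.19, edgeR adjusted p = 0.666), each lower than the same-numbered thapsigargin library, with the ranges overlapping. Under halofuginone + Tg they held 12.6, 16.6 and 11.1 CPM, all under the thapsigargin libraries (-0.58, SE 0.180, adjusted p = 0.00903), a call lost without WT halofuginone + Tg replicate 3 (-0.46, adjusted p = 0.0702). The order of means ran from PERK-null Tg (82.0 CPM), PERK-null DMSO (39.2) and PERK-null BtdCPU + Tg (37.8) through 8 groups between 26.9 and 13.4 CPM, each overlapping its neighbours, to WT halofuginone (8.70). The highest mean was 9.43 times the lowest, the widest range of the 6 genes whose lowest group lay above the limit of detection.

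**Figure D2:**
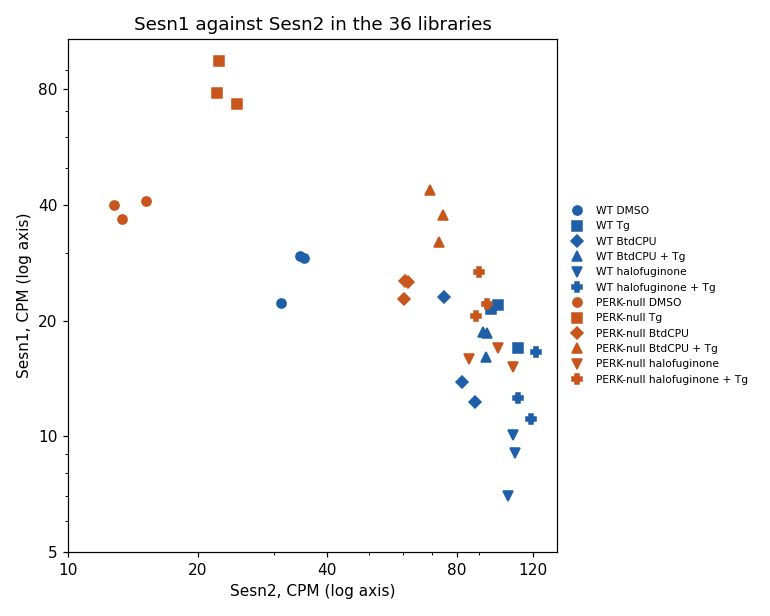
Sesn1 (y axis) against Sesn2 (x axis) in each of the 36 libraries, both in CPM on log axes, with colour for the genotype and shape for the treatment. PERK-null Tg libraries lie alone at the top left (Sesn1 at 73.1 to 94.9 CPM, Sesn2 at 22.2 to 24.7 CPM), and WT halofuginone libraries at the bottom right (Sesn1 at 6.97 to 10.1 CPM, Sesn2 at 105 to 109 CPM).

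Sesn3, the sestrin best known as a FoxO target, shared with Sesn1 the contrast between genotypes under thapsigargin. WT libraries fell from 18.5, 20.7 and 19.4 CPM under DMSO to 11.7, 12.9 and 12.9 CPM under thapsigargin (log2 difference -0.65, SE 0.133, edgeR adjusted p = 0.000168). PERK-null libraries rose from 13.8, 14 and 12.8 CPM to 37.9, 30.5 and 39.3 CPM (1.41, SE 0.133, adjusted p = 1.00e-09), the highest 3 libraries of the series. Halofuginone lowered Sesn3 in WT cells, to 12.3, 10.4 and 14.3 CPM (-0.66, SE 0.133, adjusted p = 5.75e-05). In PERK-null cells it stood at 13.4, 13.4 and 11.2 CPM under halofuginone (-0.096, 95% interval -0.37 to 0.18).

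BtdCPU alone gave no call for Sesn3, with 16.8, 21.7 and 17.9 CPM in WT (log2 difference -0.055, 95% interval -0.33 to 0.22) and 12.5, 13 and 10.7 CPM in PERK-null cells (-0.16, 95% interval -0.44 to 0.11). Added to thapsigargin in PERK-null cells, it brought Sesn3 to 17.2, 16.7 and 15.3 CPM (-1.13, SE 0.132, edgeR adjusted p = 5.56e-08), and halofuginone brought it to 15.0, 14.3 and 13.3 CPM (-1.34, SE 0.133, adjusted p = 5.29e-10). All 6 of these libraries lay below the thapsigargin libraries and 5 of them above 14 CPM, the highest PERK-null DMSO library. WT libraries under BtdCPU + Tg held 14.3, 13.5 and 14.2 CPM (0.17, 95% interval -0.11 to 0.44). Under halofuginone + Tg they held 14.4, 12.7 and 18.9 CPM (0.30, SE 0.133, adjusted p = 0.0687; with same-numbered replicates as blocks 0.29, adjusted p = 0.0467). The remaining 11 group means lay between 12.1 and 19.5 CPM, each overlapping its neighbours in the order. Under DMSO, PERK-null cells held less Sesn3 than WT (-0.53, SE 0.132, adjusted p = 0.00124).

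Ddit4, which encodes REDD1, was raised by thapsigargin in both genotypes. WT libraries held 39.7, 58.3 and 30.4 CPM under DMSO and 113, 107 and 77.3 CPM under thapsigargin (log2 difference 1.21, SE 0.263, edgeR adjusted p = 0.000317). PERK-null libraries held 16.8, 19.8 and 15.1 CPM under DMSO and 44.2, 47.9 and 42.2 CPM under thapsigargin (1.38, SE 0.269, adjusted p = 0.000180). Neither pair of groups overlapped. The PERK-null level stayed lower, by a log2 difference of -1.31 under DMSO (SE 0.269, adjusted p = 0.000136). Replicate 3 held the lowest Ddit4 level in 12 of the 12 groups and replicate 2 the highest in 11 of them. The SE of its log2 differences between 2 groups was 0.260 to 0.269, against 0.0840 to 0.186 for the sestrins and 4E-BPs.

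Neither compound alone gave a call of higher Ddit4 in the main edgeR fit, which did not pair replicates. WT libraries held 69.3, 71.2 and 57.4 CPM under BtdCPU (log2 difference 0.62, SE 0.261, edgeR adjusted p = 0.0847), with replicate 3 inside the DMSO range, and without WT DMSO replicate 2 the difference was 0.91 (adjusted p = 0.0293). Halofuginone lowered Ddit4 in WT cells to 23.3, 29.1 and 12.9 CPM (-0.98, SE 0.266, adjusted p = 0.00181). In PERK-null cells it stood at 28.0, 33.6 and 16.7 CPM under halofuginone (0.60, SE 0.268, adjusted p = 0.0704) and at 23.6, 25.8 and 19.3 CPM under BtdCPU (0.41, 95% interval -0.14 to 0.97), in both cases with replicate 3 inside the DMSO range. Without PERK-null halofuginone replicate 3 the difference was 0.85 (adjusted p = 0.0177). With same-numbered replicates as blocks, edgeR called Ddit4 higher for BtdCPU in WT (0.67, adjusted p = 7.49e-05) and PERK-null cells (0.41, adjusted p = 0.0399). It was then also called higher for halofuginone in PERK-null cells (0.57, adjusted p = 0.000391). Every library of these groups stood above the same-numbered DMSO library.

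On top of thapsigargin, halofuginone lowered Ddit4 in WT cells to 43.9, 52.2 and 26.8 CPM (log2 difference -1.27, SE 0.263, edgeR adjusted p = 0.000194). BtdCPU + Tg libraries held 65.3, 68.7 and 39.7 CPM in WT cells, all below thapsigargin alone (-0.77, SE 0.260, adjusted p = 0.104). With same-numbered replicates as blocks that difference was -0.80 (SE 0.123, adjusted p = 7.39e-05). PERK-null libraries held 26.0, 28.9 and 24.7 CPM under BtdCPU + Tg (-0.75, SE 0.264, adjusted p = 0.0247) and 25.5, 28.8 and 18.8 CPM under halofuginone + Tg (-0.88, SE 0.265, adjusted p = 0.00591), again with no overlap. The first call was lost without any 1 of 5 libraries (all but PERK-null Tg replicate 1, adjusted p = 0.0514 to 0.105), and the second without PERK-null halofuginone + Tg replicate 3 (adjusted p = 0.0572). By mean, only WT Tg (99.0 CPM) stood clear of the next group, and the other 11 groups, from 66.0 to 17.2 CPM, each overlapped their neighbours.

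Ddit4l, the REDD2 gene, was detected at low counts in WT cells and close to the limit of detection in PERK-null cells. WT DMSO libraries held 34, 39 and 13 counts and PERK-null DMSO libraries 2, 3 and 3, a ratio of WT to PERK-null of 11.5 (95% counting interval 5.58 to 27.5), given with no test because the gene passed the low-count filter through the WT libraries. PERK-null Tg libraries held 9, 19 and 10 counts, 4.71 times the PERK-null DMSO level (2.16 to 11.7, edgeR adjusted p = 0.0275), a call lost without any 1 of 4 libraries (the 3 PERK-null DMSO libraries and PERK-null Tg replicate 2, adjusted p = 0.0649 to 0.138). BtdCPU + Tg libraries held 3, 0 and 0 counts, so the thapsigargin level was 12.7 times theirs (4.02 to 64.2, adjusted p = 0.00218). These tests within PERK-null cells also rest on the filter passed through the WT libraries. Ddit4l had no result when the fit held only the compared groups. All 3 halofuginone + Tg libraries were at 0, and the thapsigargin level was at least 4.28-fold higher, taking the limit of 3 counts in each library. PERK-null BtdCPU libraries held 0, 2 and 0 counts and halofuginone libraries 0 throughout. No treatment gave a call in WT cells, where libraries ranged from 7 to 49 counts and every treated group overlapped DMSO. These intervals and limits cover counting error only.

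Eif4ebp1, which encodes 4E-BP1, was called higher in 7 of the 8 treatment comparisons in which Sesn2 was called higher, all but thapsigargin in PERK-null cells. WT libraries held 104, 116 and 98 CPM under DMSO and 394, 346 and 298 CPM under thapsigargin (log2 difference 1.70, SE 0.139, edgeR adjusted p = 1.44e-11). BtdCPU gave 330, 266 and 326 CPM (1.53, SE 0.139, adjusted p = 8.10e-10) and halofuginone 226, 256 and 163 CPM (1.02, SE 0.137, adjusted p = 1.05e-07). Every treated WT library stood above every WT DMSO library. PERK-null DMSO libraries held 151, 152 and 128 CPM, more than WT (0.44, SE 0.136, adjusted p = 0.00848).

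In PERK-null cells Eif4ebp1 stood at 151, 152 and 128 CPM under DMSO and at 161, 186 and 143 CPM under thapsigargin (log2 difference 0.19, 95% interval -0.095 to 0.47, edgeR adjusted p = 0.341). Replicates 1 and 2 under thapsigargin lay above every DMSO library and replicate 3 inside their range, and the difference did not pass. BtdCPU raised it to 252, 268 and 238 CPM (0.81, SE 0.137, adjusted p = 0.000225) and halofuginone to 312, 368 and 277 CPM (1.15, SE 0.137, adjusted p = 4.67e-08). With thapsigargin present the libraries held 316, 341 and 345 CPM under BtdCPU + Tg (1.03, SE 0.137, adjusted p = 5.13e-07) and 319, 309 and 290 CPM under halofuginone + Tg (0.91, SE 0.137, adjusted p = 1.37e-06). All 6 stood above every PERK-null Tg library.

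WT cells given a compound with thapsigargin held Eif4ebp1 at or below the thapsigargin level. Libraries under halofuginone + Tg stood at 266, 239 and 214 CPM (log2 difference -0.53, SE 0.136, edgeR adjusted p = 0.00185), and those under BtdCPU + Tg at 309, 279 and 241 CPM (-0.32, SE 0.136, adjusted p = 0.206). With same-numbered replicates as blocks the latter was -0.32 (SE 0.0984, adjusted p = 0.0261). The group means ran from 346 CPM in WT Tg to 144 CPM in PERK-null DMSO with each neighbour overlapping, and WT DMSO stood alone at 106 CPM. The highest mean was 3.26 times the lowest.

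Eif4ebp2, which encodes 4E-BP2, was lower in each comparison of 2 groups in which it was called. WT DMSO libraries held the most, at 31.9, 28.5 and 39.5 CPM. Thapsigargin lowered it in WT cells to 16.7, 17.2 and 24.5 CPM (log2 difference -0.77, SE 0.152, edgeR adjusted p = 8.91e-05) and halofuginone to 13.9, 13.8 and 15.4 CPM (-1.22, SE 0.154, adjusted p = 3.26e-08). BtdCPU gave 21.1, 25.9 and 23.4 CPM (-0.50, SE 0.151, adjusted p = 0.0150), all below DMSO. That call was lost without WT BtdCPU replicate 1 or 3 or WT DMSO replicate 3 (adjusted p = 0.0540 to 0.106), and when the fit held only the compared groups (0.0750). Halofuginone + Tg libraries held 14.1, 13.5 and 15.2 CPM (-0.45 from thapsigargin alone, SE 0.153, adjusted p = 0.0173), a call lost without WT Tg replicate 3 (-0.25, adjusted p = 0.206) or WT halofuginone + Tg replicate 2 (-0.41, adjusted p = 0.0563), and when the fit held only the compared groups (adjusted p = 0.0528).

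PERK-null cells began with less Eif4ebp2, at 21.0, 25.7 and 24.0 CPM under DMSO (log2 difference -0.50 from WT, SE 0.151, edgeR adjusted p = 0.00643), a call lost without WT DMSO replicate 3 (-0.36, adjusted p = 0.0694). Thapsigargin libraries held 20.3, 20.8 and 22.2 CPM (-0.16, 95% interval -0.47 to 0.15, adjusted p = 0.485), with replicates 1 and 2 below every DMSO library and replicate 3 inside their range. Halofuginone lowered it to 11.7, 16.2 and 10.9 CPM (-0.86, SE 0.154, adjusted p = 2.89e-05). BtdCPU libraries, at 14.9, 20.1 and 21.0 CPM, overlapped DMSO and gave no call (-0.33, SE 0.152, edgeR adjusted p = 0.285, unadjusted p = 0.0354). Against thapsigargin alone, BtdCPU + Tg libraries were lower at 13.1, 12.9 and 15.6 CPM (-0.61, SE 0.153, adjusted p = 0.00228) and halofuginone + Tg libraries at 12, 12 and 13.2 CPM (-0.77, SE 0.154, adjusted p = 9.37e-05). The highest of the 12 means, 33.3 CPM in WT DMSO, was 2.69 times the lowest, 12.4 CPM in PERK-null halofuginone + Tg.

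**Figure D3:**
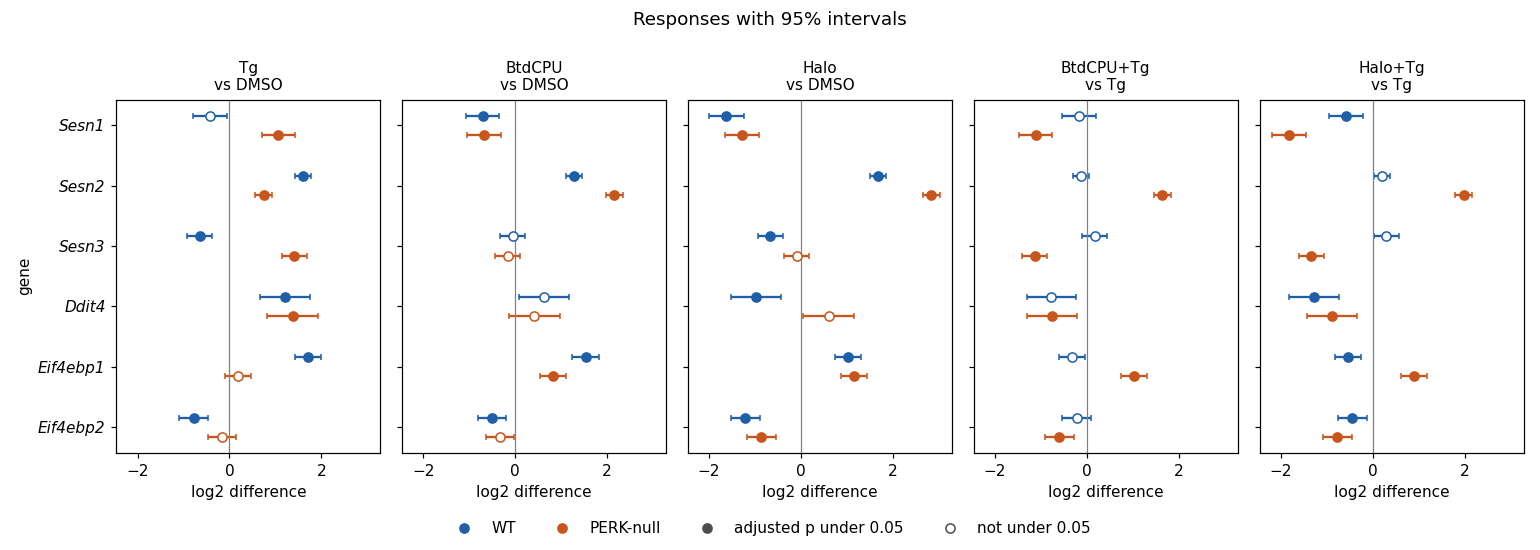
Log2 differences of 6 of the genes (rows) in 5 comparisons (panels, x axis in log2 units) in WT and PERK-null cells, with 95% intervals from the edgeR fit and filled circles for adjusted p under 0.05. Ddit4l is not drawn because PERK-null groups lay at the limit of detection, and in the Tg panel Sesn1 and Sesn3 lie on opposite sides of 0 in the genotypes (-0.42 and 1.07, -0.65 and 1.41).

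The difference between genotypes was tested directly, as the PERK-null response minus the WT response, for the 6 genes other than Ddit4l. For thapsigargin, the response was called higher in PERK-null cells for 3 genes and lower for 2, beside 19.5% and 18.6% of tested genes, with a median of 0.39. Sesn3 differed by 2.05 on the log2 scale (SE 0.188, edgeR adjusted p = 4.87e-10) and Sesn1 by 1.49 (SE 0.249, adjusted p = 1.59e-05). Eif4ebp1 differed by -1.52 (SE 0.193, adjusted p = 1.92e-07) and Sesn2 by -0.85 (SE 0.123, adjusted p = 1.53e-06). Eif4ebp2 differed by 0.61 (SE 0.214, adjusted p = 0.0223), a call lost without any 1 of 5 libraries (WT DMSO replicate 3, WT Tg replicates 1 and 2, PERK-null DMSO replicate 1, PERK-null Tg replicate 3, adjusted p = 0.0506 to 0.0895). The Ddit4 responses differed by 0.17 (95% interval -0.60 to 0.93), an interval that spans 0.

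The BtdCPU response differed between genotypes for 1 of 6 genes, Sesn2, whose response was higher by 0.87 in PERK-null cells (SE 0.122, edgeR adjusted p = 0.000200). Among all tested genes 0.0373% were called higher and 0.162% lower in that comparison, and the median of the 6 genes was -0.037. When the fit held only the 4 compared groups, the Sesn2 difference was 0.88 and missed the threshold (adjusted p = 0.0673). Eif4ebp1 differed by -0.72 without passing (SE 0.192, adjusted p = 0.111), although its unadjusted p was under 0.05. It passed with DESeq2 (-0.71, adjusted p = 0.0319) and without WT BtdCPU replicate 2 (-0.81, adjusted p = 0.0125). The halofuginone response was called higher in PERK-null cells for 3 genes and lower for 0 (also 0 at an unadjusted p under 0.05 and with DESeq2), beside 17.5% of tested genes in each direction (median 0.46). These were Ddit4 at 1.58 (SE 0.377, adjusted p = 0.00156), Sesn2 at 1.16 (SE 0.122, adjusted p = 2.81e-08) and Sesn3 at 0.57 (SE 0.188, adjusted p = 0.0186). The Sesn3 call was lost without WT halofuginone replicate 2 (0.46, adjusted p = 0.0616).

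For the compounds added to thapsigargin, the responses of the same 4 genes differed between genotypes in each case. With BtdCPU, the responses of Sesn2 (1.78, SE 0.121, edgeR adjusted p = 2.08e-11) and Eif4ebp1 (1.36, SE 0.192, adjusted p = 5.01e-06) were called higher in PERK-null cells. Those of Sesn3 (-1.30, SE 0.187, adjusted p = 6.12e-06) and Sesn1 (-0.94, SE 0.249, adjusted p = 0.00639) were called lower, so 2 and 2 of 6, beside 10.7% and 10.1% of tested genes (median -0.18). With halofuginone, Sesn2 differed by 1.78 (SE 0.121, adjusted p = 4.71e-12), Eif4ebp1 by 1.44 (SE 0.193, adjusted p = 7.99e-07), Sesn3 by -1.63 (SE 0.188, adjusted p = 6.59e-08) and Sesn1 by -1.25 (SE 0.252, adjusted p = 0.000236), again 2 and 2 of 6, beside 15.9% and 16.9% (median 0.039). Both sets of differences share the thapsigargin libraries of both genotypes. Ddit4 differed by 0.020 with BtdCPU (95% interval -0.74 to 0.78) and by 0.40 with halofuginone (-0.37 to 1.16), and neither passed.

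To compare the genes with each other, levels were divided by exon length (GENCODE M21, exons of all transcripts merged). In WT DMSO libraries the mean level per kilobase was 48.4 CPM per kb for Eif4ebp1, 24.4 for Ddit4, 9.70 for Sesn2, 6.76 for Sesn1, 5.76 for Eif4ebp2, 1.28 for Sesn3 and 0.282 for Ddit4l. PERK-null DMSO libraries held 65.4 CPM per kb of Eif4ebp1, 9.84 of Sesn1, 9.81 of Ddit4, 4.07 of Eif4ebp2, 3.95 of Sesn2, 0.886 of Sesn3 and 0.0249 of Ddit4l. Eif4ebp1 therefore stood at the top in both lines, and among the sestrins Sesn2 led Sesn1 in WT and Sesn1 led Sesn2 in PERK-null cells. Under thapsigargin the levels per kilobase of Sesn2 and Sesn1 were 29.4 and 5.05 CPM per kb in WT and 6.64 and 20.6 CPM per kb in PERK-null libraries. Sesn3 has the longest merged exons of the set, 15269 bases. No gene of the set overlaps another tested gene in that annotation.

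Over the 12 group means of log2 CPM, Pearson's r between members was -0.77 for Sesn1 and Sesn2, 0.76 for Sesn2 and Eif4ebp1, -0.70 for Eif4ebp1 and Eif4ebp2, 0.68 for Sesn1 and Sesn3 and -0.65 for Sesn2 and Eif4ebp2. These are descriptions over 12 points that come from the same 36 libraries. The genes most like each member by the same measure, among 10560 other genes, were Eprs (0.956), Xpot (0.956) and Slc1a4 (0.952) for Sesn2, and Rnf167 (0.974), Rnf181 (0.972) and Pef1 (0.972) for Sesn1. For Sesn3 they were Tm9sf1 (0.907), Sepp1 (0.903) and Ankrd44 (0.902), and for Ddit4 Sec31a (0.937), Ppox (0.936) and Tapbpl (0.928). For Eif4ebp1 they were Car6 (0.980), Mdfic (0.965) and Zfyve9 (0.960), for Eif4ebp2 Csnk1g2 (0.985), Ppp1r9b (0.972) and Tubb4b (0.969), and for Ddit4l Arvcf (0.976), Gm26596 (0.964) and Psrc1 (0.962). The r values of Ddit4l are dominated by the difference between genotypes, since all PERK-null groups lie below all WT groups.

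The other genes of the pathway were read from 6 lists: mTORC1 and mTORC2 subunits, the TSC complex with Rheb, Rag GTPases with Ragulator, the GATOR, KICSTOR and CASTOR genes, AMPK with LKB1, and the cap-binding and S6 kinase arm. All 65 listed genes found in the table were tested. Each share below is of these 65 genes, with the share of all tested genes after it. In WT cells 18 rose and 15 fell with thapsigargin (edgeR), 27.7% and 23.1% beside 24.9% and 22.7%. With BtdCPU 15 rose and 5 fell, 23.1% and 7.69% beside 12.9% and 9.31%, and with halofuginone 27 rose and 24 fell, 41.5% and 36.9% beside 34.7% and 33.4%. In PERK-null cells 6 rose and 17 fell with thapsigargin, 9.23% and 26.2% beside 15.2% and 12.7%. With BtdCPU 3 rose and 0 fell (4 lower at an unadjusted p under 0.05, DESeq2 not run on the whole list), 4.62% and 0% beside 2.55% and 1.04%, and with halofuginone 12 rose and 19 fell, 18.5% and 29.2% beside 21.2% and 21%. For PERK-null thapsigargin, 9 of the 17 that fell belonged to the cap-binding and S6 kinase arm (9 of its 16 genes, with 1 rising and a list median of -0.27). With thapsigargin in WT cells 7 of that arm's 16 genes fell and 5 rose, 43.8% and 31.2% beside 22.7% and 24.9% (list median -0.18). Of the AMPK and LKB1 genes, 3 of 7 also fell with thapsigargin in PERK-null cells, 42.9% beside 12.7% (list median -0.07). Against thapsigargin alone, BtdCPU + Tg gave 3 higher and 1 lower in WT cells, 4.62% and 1.54% beside 1.29% and 1.02%, and 21 higher and 7 lower in PERK-null cells, 32.3% and 10.8% beside 17.3% and 18.3%. Halofuginone + Tg gave 22 higher and 17 lower in WT cells, 33.8% and 26.2% beside 22.8% and 22.5%, and 19 higher and 22 lower in PERK-null cells, 29.2% and 33.8% beside 25.2% and 27.5%. Under DMSO, 26 of the 65 were higher and 8 lower in PERK-null than in WT cells, 40% and 12.3% beside 24.6% and 24.9%, the 26 counting Rragb, which passed the low-count filter through its PERK-null libraries.

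**Figure D4:**
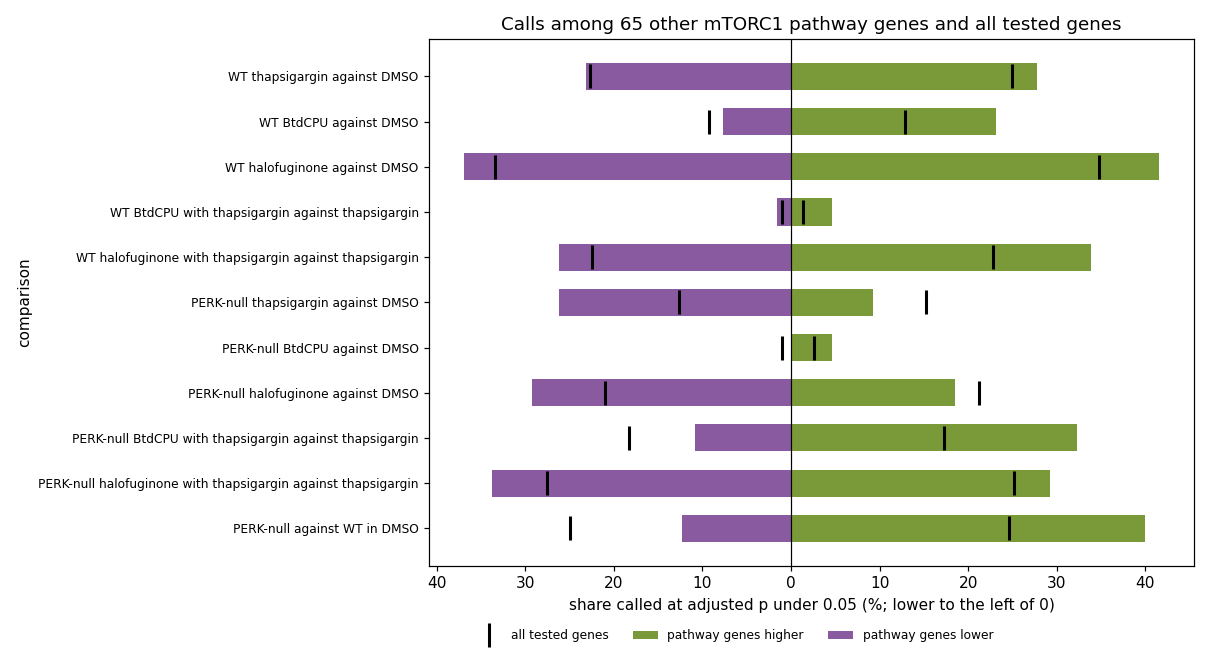
Share of the 65 other pathway genes called higher (right of 0) or lower (left of 0) in each of 11 comparisons (rows, x axis in percent), with black marks for the share among all tested genes. With thapsigargin in PERK-null cells 26.2% were called lower, beside 12.7% of all tested genes, and under DMSO 40% were called higher in PERK-null than in WT cells, beside 24.6%. The 40% counts Rragb, which passed the low-count filter through its PERK-null libraries.

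Up to 3 genes per comparison are named here, those with the largest differences among the genes called. Mknk1, a kinase of eIF4E, rose from 11.9 ± 1.21 to 47.3 ± 1.47 CPM with thapsigargin in WT cells (log2 difference 1.99), while its relative Mknk2 fell from 109.7 ± 6.48 to 45.4 ± 0.451 CPM (-1.27) and Depdc5, a GATOR1 subunit, from 35.9 ± 3.82 to 13.9 ± 1.75 CPM (-1.37). Pdcd4, an inhibitor of the helicase eIF4A, rose from 30.2 ± 4.08 to 87.7 ± 10.6 CPM with thapsigargin in PERK-null cells (1.54), where Slc38a9, a lysosomal arginine sensor, rose by 1.03 and Prkab2, an AMPK subunit, fell by 1.20. With halofuginone in WT cells Pdcd4 fell from 27.6 ± 5.70 to 6.91 ± 1.81 CPM (-1.99), and Prr5l (2.09) and Prkab2 (2.04) rose. Halofuginone in PERK-null cells raised Itfg2, a KICSTOR subunit (1.52), and Mknk1 (1.40) and lowered Mknk2 (-1.42). The pair of values with each ± is a mean and SD of 3 libraries.

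Of the pathway genes in PERK-null cells, BtdCPU + Tg raised Fnip2, a partner of folliculin (log2 difference 1.81 from thapsigargin alone), and Larp1 (1.19) and lowered Gatsl2, an older symbol of Castor2 (-1.49). Halofuginone + Tg raised Itfg2 (1.69) and lowered Gatsl2 (-1.82) and Mknk2 (-1.52). In WT cells given halofuginone + Tg, Pdcd4 fell by 2.11, Prr5 fell by 1.54 and Prr5l rose by 1.59 on the log2 scale. Smaller differences were called with BtdCPU: Prkab2 (1.03), Fnip1 (0.93) and Rragc (0.71) in WT cells, Nprl3 (0.47), Itfg2 (0.43) and Flcn (0.43) in PERK-null cells, and Prr5l (0.89), Pdcd4 (-0.79) and Flcn (0.46) in WT cells when added to thapsigargin. The calls of Itfg2 and Flcn in PERK-null cells were lost without any 1 of the 6 libraries, and that of Flcn in WT cells likewise. When the fit held only the compared groups, the calls of Prkab2 (edgeR adjusted p = 0.0817) and Rragc (0.0524) in WT BtdCPU cells and of Prr5l (0.0548), Pdcd4 (0.0839) and Flcn (0.174) in WT BtdCPU + Tg cells were lost. Prkab2 in WT BtdCPU cells was also not called without WT BtdCPU replicate 3 (0.76, edgeR adjusted p = 0.0696). Pdcd4 in WT BtdCPU + Tg cells was not called without WT BtdCPU + Tg replicate 3 or WT Tg replicate 1 or 3 (adjusted p = 0.0762 to 0.263). Between lines under DMSO, Eif4g3, a scaffold of the cap-binding complex, stood at 186 ± 32.9 CPM in WT and 5.20 ± 0.645 CPM in PERK-null libraries (-5.16). Rragb was at 0 in all 3 WT libraries and at 7.57 ± 1.23 CPM in PERK-null libraries, at least 86.4-fold higher over a limit of 3 counts in each library. Deptor, an mTOR inhibitor, was higher in PERK-null libraries (1.82).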

How the data were processed

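The labels name a QuickRNA kit, a strand-specific DNBSEQ protocol, ribosomal depletion and mRNA selection. The submitters' processing notes name build GRCm39 and the tool DESeq. The aligner, counting tool and annotation are not given in the sources used here. The authors deposited 1 table of 36930 entries, whose values are estimated counts per gene and library, not scaled. A fill value of 0.025 makes up 50.6% of values and was set to 0, and 2.69% of values were fractional and were rounded. The 27 entries named by dates (0.206% to 0.278% of a library) were dropped and 39 repeated symbols summed. Libraries of a group differed by a chi-square per degree of freedom of at least 9.06, so none repeated another.

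The quasi-likelihood test of edgeR 4.0.16 (R 4.3.3, robust) was run on all genes together, after filterByExpr and TMM, with 12 group means over 36 libraries (common dispersion 0.0199, 24 residual degrees of freedom). Of 16 comparisons, 5 were interactions. Benjamini-Hochberg adjustment covered the 16065 genes of a comparison, with a threshold of 0.05. The fit was tested on simulated data. Alternatives were DESeq2 1.42.0, library size alone, no filter, only the compared groups, replicate blocks and leaving out each library. Same-numbered replicates paired the libraries (every r of deviations over 0.1) in 2 of 11 comparisons, BtdCPU + Tg and halofuginone + Tg against Tg in WT cells (r = 0.159 to 0.337).

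The genes, lists and motifs were chosen with earlier results of these data known. Named pathway genes are up to 3 per comparison with the largest difference among those called, a mean log2 CPM no lower than 2 and no overlap between the groups. The genes most like a member are the 3 with the highest r of group means of log2 CPM (prior count 2).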

Additional observations from a re-analysis of the deposited data

Results flagged for a closer look

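These differences between genotypes passed the edgeR test of the difference itself (PERK-null response minus WT response, log2). For thapsigargin they were 1.49 for Sesn1, -0.85 for Sesn2, 2.05 for Sesn3, -1.52 for Eif4ebp1 and 0.61 for Eif4ebp2, and among the other pathway genes 1.82 for Gatsl2, -1.77 for Prkab2 and 1.73 for Depdc5. For BtdCPU it was 0.87 for Sesn2. For halofuginone they were 1.16 for Sesn2, 0.57 for Sesn3 and 1.58 for Ddit4, and among the others -2.11 for Prr5l, -1.58 for Prkab2 and 1.56 for Pdcd4.

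For BtdCPU added to thapsigargin the differences were -0.94 for Sesn1, 1.78 for Sesn2, -1.30 for Sesn3 and 1.36 for Eif4ebp1, and among the others -1.85 for Gatsl2, 1.28 for Larp1 and -1.24 for Depdc5. For halofuginone added to thapsigargin they were -1.25 for Sesn1, 1.78 for Sesn2, -1.63 for Sesn3 and 1.44 for Eif4ebp1, and among the others -2.02 for Mknk2, -1.98 for Gatsl2 and -1.81 for Prr5l. The comparisons with added compounds share their thapsigargin libraries.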

How the results depend on the processing

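With all libraries kept, 713 values of single genes kept their direction and their side of the threshold under the alternatives, 19 newly passed it, 9 no longer passed and 1 changed sign. The 9, each in a fit of only the compared groups, were Sesn2 for BtdCPU between genotypes and, in WT cells, Sesn1, Eif4ebp2, Prkab2 and Rragc for BtdCPU, Prr5l, Pdcd4 and Flcn for BtdCPU + Tg and Eif4ebp2 for halofuginone + Tg. Not counted among these values are the calls of Ddit4l in PERK-null cells for thapsigargin, BtdCPU + Tg and halofuginone + Tg. Ddit4l did not pass the low-count filter in that fit and had no result there. The change of sign was Ddit4 for BtdCPU added to thapsigargin between genotypes, at -0.056 with library size alone, where neither value passed. Of the 19, those of Ddit4 were BtdCPU in WT (no filter, block) and PERK-null cells (block) and BtdCPU + Tg in WT cells (DESeq2, no filter, block). Ddit4 also newly passed for halofuginone in PERK-null cells (no filter, only the compared groups, block). The rest were Sesn1 for thapsigargin, Sesn2 and Sesn3 for halofuginone + Tg and Eif4ebp1 for BtdCPU + Tg, all in WT cells, and Eif4ebp1 for BtdCPU between genotypes. Counts of calls moved by over 1.5 times in 4 comparisons, all with BtdCPU. Members called for BtdCPU between genotypes (1) were 2 with DESeq2, 2 without the filter, 0 with only the compared groups and 2 with the block. Those for BtdCPU in WT cells (4) were 2 with only the compared groups, and those for BtdCPU + Tg in WT cells (0) were 1 with DESeq2, 1 without the filter and 2 with the block. Tested genes called for BtdCPU between genotypes (32) were 161 with DESeq2, 314 without the filter, 2 with only the compared groups and 587 with the block. For BtdCPU in PERK-null cells (577) they were 881 with DESeq2, 1265 with only the compared groups and 1577 with the block, and in WT cells (3571) they were 835 with only the compared groups and 5534 with the block. For BtdCPU + Tg in WT cells (372) they were 899 with DESeq2, 813 without the filter, 23 with only the compared groups and 2079 with the block. The cause of these shifts was not tested.

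Leaving out 1 library gave 1 to 2 members for BtdCPU between genotypes and 2 to 5 for BtdCPU in WT cells. Tested genes called ranged from 14 to 845, 326 to 405, 1780 to 5062 and 41 to 331 in the 4 comparisons above, in the same order, the 845 without WT BtdCPU replicate 2. The libraries that moved them by over 1.5 times were WT BtdCPU replicates 1, 2 and 3, WT DMSO replicate 1 and PERK-null BtdCPU replicate 2 in the first, PERK-null BtdCPU replicates 1 and 3 and PERK-null DMSO replicates 1 and 2 in the second, WT BtdCPU replicates 1 and 3 and WT DMSO replicate 2 in the third, and WT BtdCPU + Tg replicate 3 and WT Tg replicates 1 and 3 in the last. The values that changed sign had not passed: Ddit4 for BtdCPU over thapsigargin (-0.15 to 0.21) and for thapsigargin (-0.12 to 0.36) between genotypes, Sesn1 (-0.13 to 0.36) and Sesn3 (-0.18 to 0.0064) for BtdCPU between genotypes, Ddit4l for BtdCPU + Tg in WT cells (-0.21 to 0.50) and Sesn3 for BtdCPU in WT cells (-0.17 to 0.016).

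With library size alone, the share of called genes that were higher went from 58.1% to 45.1% for BtdCPU in WT cells, from 55.9% to 80.7% for BtdCPU + Tg in WT cells and from 51.6% to 41.4% for the latter between genotypes. The median of all genes shifted by -0.11 for halofuginone in WT cells and by 0.10 for halofuginone between genotypes.

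In the 2 paired comparisons the block changed the 4 member calls given with the results (such as Sesn2 at 0.20, adjusted p = 0.0307) and no other. In 4 of the other 9 comparisons of 2 groups, every library correlated best with its own number. None of the 9, and no interaction, met the rule set for pairing, which asked for every r of deviations to pass its threshold. There the block added calls for Ddit4 in WT BtdCPU (0.67, adjusted p = 7.49e-05), PERK-null BtdCPU (0.41, adjusted p = 0.0399) and PERK-null halofuginone libraries (0.57, adjusted p = 0.000391), for Sesn1 in WT Tg libraries (-0.42, adjusted p = 0.00130), and for Eif4ebp1 with BtdCPU between genotypes (-0.72, adjusted p = 0.00403). The block ended no call among the members. Depth limits only Ddit4l, whose PERK-null groups lay at or under 3 counts except under thapsigargin.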
